A study of Homo sapiens with 8 samples.

Results

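Guides against genes of the DNA replication machinery were examined in a Cas13d dropout screen of A375 cells. Members were chosen by gene symbol alone, from a set of 51 genes that load, start, run or protect the replication fork, leaving out guides of the table's non-essential control type. The deposited table held 29 of these genes, with 1642 guides on 231 splice junctions, out of 46829 guides on 6735 junctions of 1250 genes in all. A member gene had 8 to 149 guides, with a median of 39, and a junction had at most 8. The table typed 22 of the 29 genes as essential in this screen and 7 as not essential (GINS1, GINS3, GINS4, ORC1, ORC6, POLE3 and CDT1). How the type was set is not given in the sources used here, so it may rest on the same fold changes. The other genes the rule could name, among them MCM2, MCM7, CDC6 and POLA1, were not analysed here.

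DNA replication begins when the origin recognition complex, with CDC6 and CDT1, loads the MCM helicase onto origins. The kinase CDC7 and the factors CDC45 and GINS then turn the loaded MCM ring into a moving helicase. Primase and the polymerases alpha, delta and epsilon copy the strands, the clamp PCNA, loaded by the RFC complex, holds the polymerases on DNA, and RPA coats the single strands. Proliferating cells need most of these proteins in every S phase, and many of them are standard positive controls of growth screens.

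A375 is an established human melanoma line. The cells were a monoclonal line, 1 clone, of the genotype TetO-RfxCas13d, in which doxycycline induces an RNA-guided nuclease that cuts RNA and leaves the gene intact, and they carried a lentiviral guide pool. Untreated cells were collected at Day 0, and cells given 1 ug/ml doxycycline were collected at Day 7, Day 14 and Day 21, with 2 replicates at each time and 8 libraries in all. Guide cassettes were amplified from genomic DNA, so each value is a log2 fold change of a guide's abundance in the pool against Day 0, and a value of -1 is a guide that became 2 times rarer. All groups carried the same nuclease and pool. There was no doxycycline-treated arm without the nuclease among the samples analysed here, and neither the level of any target RNA nor a marker of the cell line was measured in these libraries.

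Read depth was not given in the sources used here. The fold changes were, for 100% of guides in both replicates, ratios of whole numbers over a Day 0 number shared by the 3 days of a replicate (tolerance 1e-05 on the whole number). The smallest such number, a lower bound that would include any pseudocount, is called the implied number. For replication guides its median at Day 0 was 90 and 123 in the 2 replicates, and its Day 21 counterpart was 55 and 98. By Day 21 an implied number of 1 was reached by 50 replication guides in replicate 1 and by 54 in replicate 2, with 15 at 1 in both. Their fold changes are limited by depth. The table's header calls the replicates biological, and nothing says that the replicates were separate cultures. The p-values below rest on the spread between these libraries, which limma draws toward a spread shared by all features tested. They therefore do not measure the spread of a single gene, junction or guide alone.

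Guides against replication genes became rarer with time, with little movement by Day 7. The median replication guide minus the median of the 963 non-targeting guides at Day 7 was 0.04 for replicate 1 and -0.13 for replicate 2. The same difference was -0.34 and -0.26 at Day 14, and it was -0.49 and -0.42 by Day 21 (mean -0.45 ± 0.05, SD, n = 2). The replicates lay on opposite sides of 0 at Day 7 and well below 0 on both later days. An exact sign-flip test of 2 differences cannot give a p below 0.5, so no test was made. Guides of all other scored genes, the genes typed essential or not essential, stood at -0.31 ± 0.01 at Day 21 (SD, n = 2). On the same difference they stood at a mean of -0.06 at Day 7 and -0.23 at Day 14. A decline with time was therefore not particular to replication guides.

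Most replication guides did not fall far. At Day 21, 331 of the 1642 guides (20.2%) were at -1 or lower in both replicates, against 17.7% of guides of other scored genes, 7.23% of guides of the non-essential control genes and 3.74% of non-targeting guides. Taken guide by guide, limma called 15 replication guides lower at Day 7 (0.914%), where 2.10% of all guides were called lower. It called 131 lower at Day 14 (7.98%, against 7.96% of all guides) and 200 lower at Day 21 (12.2%, against 11.1% of all guides). It called none higher at Day 21, where 0.218% of all guides were. These shares are near the background of the whole table and are no result about replication guides as a class. With the replicate number as a block and all days in a single fit, 421 guides passed at Day 21, of which 376 were lower and 45 higher.

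Taken gene by gene, with the value of a gene in a replicate set to the mean over its guides, 11 of the 29 genes fell by Day 21. They were POLE2, POLD2, RPA1, MCM3, MCM4, MCM6, PCNA, MCM5, RPA3, TOP2A and CDC45, and no gene rose. The test was limma on the 2 replicate values against 0, with Benjamini-Hochberg adjustment over all 1223 genes with at least 3 guides. The 11 genes were 37.9% of the members, and 20.8% of all genes tested and 28.2% of scored genes tested were called lower at Day 21, while 0.654% of all genes were called higher. The median over the 29 genes was -0.67, the median over all genes tested -0.28 and that over scored genes -0.43. Among genes typed essential, 11 of the 22 members were called, against 44.1% of all genes of that type. None of the 7 members typed not essential was called, against 6.57% of all genes of that type (1 of the 7, GINS4, had an unadjusted p under 0.05).

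The number of called genes rested on how guides were summarised and on the reference level. With the replicate block 21 of the 29 passed. With the median of a gene's guides in place of the mean, 0 passed by limma (11 had an unadjusted p under 0.05), and the 11 values ran from -1.33 in POLE2 to -0.54 in CDC45. Centring each library on the median of all guides, which adds 0.31 to every Day 21 mean, left RPA1 as the only call (12 had an unadjusted p under 0.05).

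The MCM helicase genes fell together. MCM3, MCM4, MCM5 and MCM6 encode subunits of the ring that unwinds parental DNA, and all 4 were called lower. Of scored genes tested 28.2% were. The 4 were set apart after the values were seen from a role in which 4 of 7 genes were called. MCM3 guides averaged -1.83 in replicate 1 and -1.38 in replicate 2 at Day 21 (mean -1.61, SE 0.19, adjusted p 0.0189 by limma). MCM4 averaged -1.31 and -1.84 (mean -1.57, SE 0.20, adjusted p 0.0214), and MCM6 averaged -1.34 and -1.52 (mean -1.43, SE 0.15, adjusted p 0.0162). All 3 lay below -1.3 in both replicates, and their order changed between replicates. MCM5 averaged -1.21 and -1.10 (mean -1.16, SE 0.14, adjusted p 0.0207). At Day 7 the 4 gene means lay between -0.27 and -0.02, and at Day 14 between -1.46 and -0.79. Of the 306 guides against these 4 genes, 97 (31.7%) were at -1 or lower in both replicates at Day 21. The share was 17.7% among guides of other scored genes and 3.74% among non-targeting guides.

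The genes that act before the helicase, at origin recognition and loading, stood apart from the MCM genes in level. ORC1, the largest subunit of the origin recognition complex, averaged -0.20 and -0.03 at Day 21, with a 95% interval of the mean from -0.55 to 0.33 (adjusted p 0.648 by limma). CDT1, which brings the MCM ring to the origin, averaged 0.09 and 0.14 (interval -0.31 to 0.54, adjusted p 0.616). ORC6, the smallest subunit, was the highest of the 29 genes, with 0.53 in replicate 1 and 0.04 in replicate 2 (interval -0.29 to 0.86, adjusted p 0.389). None of these 3 genes was called on any day. Of their 173 guides, 5 (2.89%) were at -1 or lower in both replicates, beside 3.74% of non-targeting guides. All 3 were typed not essential, and the difference between them and the MCM genes was not tested as such. In the roles used here these genes and the MCM genes form 1 role, split here after the values were seen. Means near 0 were not particular to origin genes, as POLE3 stood at -0.02.

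Of the 7 genes that activate the helicase, CDC45 alone was called. This share of 14.3% was not above the 20.8% of all genes and 28.2% of scored genes called lower at Day 21. It is no result about the role. CDC45, which binds the MCM ring as part of the active helicase, averaged -0.85 and -0.79 at Day 21 (mean -0.82, SE 0.14, adjusted p 0.0394 by limma). Its 2 replicates were close, and it was the weakest of the 11 called genes. With libraries centred on the non-targeting guides its adjusted p was 0.05005 and it was no longer called.

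The other activation genes were negative in both replicates without passing. GINS1, a subunit of the helicase cofactor GINS, averaged -1.12 in replicate 1 and -0.33 in replicate 2 (adjusted p 0.146), a gap between replicates wider than its mean. GINS4, of the same complex, averaged -0.70 and -0.51 (adjusted p 0.0754), and GINS3 averaged -0.22 and -0.25 (adjusted p 0.340), the highest mean of this role. GINS3 turned to 0.08 with libraries centred on all guides. WDHD1, which links the helicase to polymerase alpha, averaged -0.84 and -0.57 (adjusted p 0.0652). CDC7, the kinase that activates origins, averaged -0.46 and -0.38 (adjusted p 0.138), and TICRR, which helps load CDC45, averaged -0.45 and -0.14 (adjusted p 0.294).

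The polymerase subunits held both the lowest gene and some of the highest. POLE2, the second subunit of polymerase epsilon, averaged -2.56 and -1.45 at Day 21 (mean -2.01, SE 0.33, adjusted p 0.0364 by limma), and the adjusted p was 0.0670 with libraries centred on the non-targeting guides. POLD2, the second subunit of polymerase delta, averaged -1.98 and -1.65 (mean -1.81, SE 0.17, adjusted p 0.0136). POLE2 had the lowest mean of all members but was lower in replicate 1 than in replicate 2, and POLD2 rested on the 8 guides of a single junction. At Day 14 POLE2 stood at -1.57 and -1.19 and POLD2 at -0.85 and -1.98, so the replicate that was lower differed between the days for POLD2.

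The catalytic subunit of polymerase delta, POLD1, averaged -0.56 and -0.62 at Day 21 (adjusted p 0.0728), and POLD3, an accessory subunit, averaged -0.23 and -0.34 (adjusted p 0.265). PRIM1, the catalytic subunit of primase, averaged -0.26 and -0.19 (adjusted p 0.363). None of these 3 passed, though all were negative in both replicates. POLE3, a histone-fold subunit of polymerase epsilon, averaged -0.24 and 0.20 (mean -0.02, interval -0.57 to 0.53, adjusted p 0.944), so its replicates had opposite signs.

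PCNA and a pair of RPA subunits fell, while the clamp loader genes did not pass. RPA1, the large DNA-binding subunit of RPA, averaged -1.80 in replicate 1 and -1.75 in replicate 2 at Day 21 (mean -1.78, SE 0.14, adjusted p 0.0124 by limma), the smallest adjusted p of the members. PCNA averaged -1.29 and -1.22 (mean -1.25, SE 0.14, adjusted p 0.0186), and its mean was -1.99 over guides whose implied number at Day 0 was 50 or more. RPA3, the smallest RPA subunit, averaged -1.10 and -1.21 (mean -1.16, SE 0.14, adjusted p 0.0207). In each of these 3 genes the replicates lay close to each other. RPA2, the remaining subunit, averaged -0.42 and -0.61 (adjusted p 0.100), the highest mean of this role, and passed only with the replicate block (adjusted p 0.00730).

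The 4 RFC genes, whose products open PCNA and close it around DNA, ranged from -0.67 to -0.53 in mean. RFC5 averaged -0.68 and -0.66 (adjusted p 0.0577) and RFC3 averaged -0.66 and -0.68 (adjusted p 0.0581), both just outside the threshold of 0.05. RFC4 averaged -0.61 and -0.56 (adjusted p 0.0734). RFC2 averaged -0.996 and -0.06 (adjusted p 0.295), so its low mean rested on replicate 1. TOP2A, the topoisomerase that untangles replicated chromosomes and the sole member of its role, averaged -1.09 and -1.14 (mean -1.11, SE 0.14, adjusted p 0.0214).

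The same 11 genes were called at Day 14 as at Day 21. These were 37.9% of the 29 members at Day 14, where 22.1% of all genes and 29.4% of scored genes were called lower and 0.736% of all genes higher. At Day 7 no member was called by limma, while 3.92% of all genes were called lower and 0.0818% higher, with 2 members at an unadjusted p under 0.05. In the 11 genes the Day 14 mean was 67.4% to 92.9% of the Day 21 mean, with a median of 75.3%. MCM4 had moved furthest of them by Day 14 and RPA3 least, in this ratio. The change from Day 7 to Day 21, in which Day 0 cancels, was also called for these 11 genes, where 23.5% of all genes and 30.0% of scored genes were called lower and 1.23% of all genes higher. The largest was that of POLD2, with -2.29 in replicate 1 and -1.41 in replicate 2, and the smallest that of CDC45, with -0.78 and -0.56. The counts at Day 14 and for the change from Day 7 were 18 and 17 with the replicate block, 5 and 5 with libraries centred on all guides, and 0 and 0 with guide medians (10 and 8 with an unadjusted p under 0.05).

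A list of 49 other genes of replication and its checkpoint gave 18 that were in the table, and 3 of these were called lower at Day 21 and none higher. The median over the 18 was -0.38, beside -0.28 over all genes tested. Over the 17 of them that were scored it was -0.37, beside -0.43 over all scored genes, and the share called was not above the 20.8% of all genes. DDB1, part of the ubiquitin ligase that degrades CDT1 in S phase, averaged -1.64 and -1.80 (adjusted p 0.0126 by limma). POLE, the catalytic subunit of polymerase epsilon, averaged -1.40 and -1.39 (adjusted p 0.0156), above its partner POLE2 in replicate 1 and close to it in replicate 2. CHAF1B, a subunit of the factor that places histones behind the fork, averaged -1.28 and -1.36 (adjusted p 0.0169).

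Guides of a gene differed by the junction they target, and how far the differences recurred between replicates varied by gene. Of the sum of squares of the replication guides at Day 21, 10.96% lay between genes, 27.1% between junctions of a gene and 61.9% between guides of a junction. These shares make no allowance for the numbers of units, 29 genes, 231 junctions and 1642 guides. They therefore cannot say whether gene or junction matters more. The gene means correlated between the replicates with Pearson's r of 0.843 over 29 genes. A junction's mean minus the mean of the other guides of its gene gave r of 0.760 over 216 junctions, and a guide's value minus its junction's mean gave r of 0.368 over 1620 guides. Within the 19 genes with at least 5 junctions, r between replicates over junctions ran from -0.12 in ORC1 to 0.94 in CDC7. It was -0.10 in CDT1, 0.24 in TICRR and 0.50 in WDHD1. These correlations describe points that share libraries. The position of junctions is given as the table lists it, with hg38 the build listed in the submitters' processing notes. Junctions are numbered from the gene's 5′ end over those in the table, and all 231 lay inside the RefSeq span (GRCh38.p14) of the gene of the same symbol. The guide sequences and exon annotation were not used here.

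Each junction with at least 3 guides was set against the other guides of its gene at Day 21 by limma, adjusted over 6111 junctions of the whole table. Of the 216 member junctions tested, 31 were lower than the rest of their gene (14.4%, against 12.0% of all junctions tested) and 25 were higher (11.6%, against 9.92%). These shares are near the background and are no result about replication genes as a class. The lower junctions came from 18 genes. The test takes the guides of a junction as given. Calls within a gene are not independent, since each junction is part of the rest for the others. With the replicate block 114 junctions passed (50 lower, 64 higher), and with guide medians 30 passed (26 lower, 4 higher).

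PCNA held the junction furthest below the rest of its gene. Its junction 4 (chr20:5115572-5117469, minus strand) averaged -3.38 in replicate 1 and -4.28 in replicate 2, while the other PCNA guides averaged -0.40 and 0.08 (difference -3.66, SE 0.38, adjusted p 1.53e-09 by limma). Of its 8 guides, 7 were at -1 or lower in both replicates. Junction 2 (chr20:5118677-5118768), also with 8 guides, averaged -0.23 and 0.68 (difference 2.09, SE 0.37, adjusted p 4.08e-05). Junction 3 (chr20:5117664-5118609) averaged 0.01 and 0.30 (difference 1.996, SE 0.36, adjusted p 5.11e-05). The other guides that junctions 2 and 3 were set against include those of junction 4, so these calls are not independent of its call. Among guides whose implied number at Day 0 was 50 or more, the difference of junction 3 was 1.47 with an adjusted p of 0.0752. Junction 1 (chr20:5118866-5119577), with 3 guides, averaged -1.96 and -2.13. PCNA guides were thus low on junctions 4 and 1 and stood near or above 0 on junctions 2 and 3.

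The 3 junctions furthest below the rest of their gene are given here on the earlier days. Junction 4 of PCNA stood at -0.54 and -0.97 at Day 7 and at -2.98 and -2.41 at Day 14. Junction 21 of TOP2A stood at -0.41 and -1.32 and then at -2.17 and -3.05. Junction 11 of MCM5 stood at -0.53 and -0.81 and then at -3.78 and -3.32. All 3 were below 0 in both replicates by Day 7 and below -2 by Day 14.

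TOP2A and MCM5 showed as wide a range. Junction 21 of TOP2A (chr17:40391640-40392067, minus strand) averaged -3.73 and -4.45, while the rest of TOP2A averaged -0.93 in both replicates (difference -3.16, SE 0.37, adjusted p 1.68e-08). In that junction 7 of 8 guides were at -1 or lower in both replicates, and 3 guides stood at an implied number of 1 in each replicate. Junction 6 of TOP2A (chr17:40411455-40411644) averaged 0.51 and 0.33, above 0 in both replicates. Junction 11 of MCM5 (chr22:35417856-35419883, plus strand) averaged -4.01 and -3.66 over 6 guides (difference -2.85, SE 0.36, adjusted p 1.16e-07), and junction 6 (chr22:35412681-35413874) averaged 0.57 and 0.19. The lowest and highest junction means were thus 4.51 apart in TOP2A, 4.22 in MCM5 and 4.05 in PCNA, beside gene means of -1.11, -1.16 and -1.25.

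MCM3 and CDC45 followed, with ranges of 3.28 and 3.18. Junction 7 of MCM3 (chr6:52273356-52273741, minus strand) averaged -3.15 and -3.46, and all 8 guides were negative in both replicates. The next junction, 8 (chr6:52267968-52269085), averaged -1.03 in replicate 1 and 0.97 in replicate 2, so its replicates went opposite ways. Junction 3 of CDC45 (chr22:19496029-19497385, plus strand) averaged -3.07 and -3.06, and junction 8 (chr22:19507864-19508529) averaged 0.09 and 0.15. CDC45 lay close to the threshold as a gene, while 6 of the 8 guides of its junction 3 were at -1 or lower in both replicates. POLE2 had only a pair of junctions, so their contrast is a single test. Junction 2 (chr14:49679800-49683592, minus strand) averaged -2.99 and -2.83, and junction 1 (chr14:49683693-49688135), with 5 guides, averaged -1.88 and 0.77 (difference 2.36, SE 0.41, adjusted p 3.18e-05). That difference was 1.12 in replicate 1 and 3.61 in replicate 2, a gap that the SE, drawn toward that of all junctions, does not show.

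In the 11 called genes, 20 of the 91 junctions with at least 3 guides averaged -2 or lower in both replicates, 36 stayed above -1 in both and 6, in 4 genes, stayed above 0 in both. In the 18 genes not called, 1 of 126 junctions averaged -2 or lower in both replicates and 98 stayed above -1 in both. That junction was 9 of POLD1 (chr19:50406322-50406406), at -2.69 and -2.15 over 5 guides, chosen after its values were seen. Genes were called on the same Day 21 guide values that make up these junction means. The contrast between junctions of called and uncalled genes is therefore largely set by that split and is given as a description. Of the 126 junctions tested in these 18 genes, 12 were called lower than the rest of their gene, beside 12.0% of all junctions tested. This is not above the background and is no result about the genes not called. The 12 junctions lay in 8 of the 18 genes, namely CDC7, GINS1, GINS4, POLD1, RFC2, RFC3, RFC5 and WDHD1. Among these, also chosen after their values were seen, junction 2 of GINS1 averaged -2.77 and -1.69, and junction 7 of RFC5 averaged -2.20 and -1.996. Junction 5 of WDHD1, with 4 guides, averaged -1.79 and -2.57, and junction 5 of RFC3 averaged -1.11 and -2.51. Junction 4 of RFC2 averaged -1.86 and -0.85, and junction 4 of CDC7 averaged -1.65 and -1.19. These 6 junctions were negative in both replicates, and all but junction 4 of RFC2 were below -1 in both. 

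In RPA1, also described after its values were seen, the junction mean was below 0 in both replicates at every junction with at least 3 guides, from -3.54 and -3.28 at junction 7 to -0.64 and -0.14 at junction 9. In MCM6, junctions 2, 3, 7 and 11 were called lower than the rest, the lowest being junction 7 with -3.55 and -3.33, and junction 12 was called higher with -0.48 and -0.45. Over the 11 called genes the share of guides at -1 or lower in both replicates ran from 13.3% in RPA3 to 40.7% in RPA1, with MCM6 and PCNA both at 33.3%. The means of ORC6 and GINS3 junctions spanned 0.10 each, the narrowest of the members, over only 3 and 2 junctions. A range over few junctions tends to be small, and a mean over replicates can hide opposed values. Junction 1 of ORC6 averaged 0.93 in replicate 1 and -0.42 in replicate 2.

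The table sorts junctions into categories whose definitions are not given in the sources used here. Of the member junctions, 164 in 23 genes were common, 57 in 4 genes (CDT1, MCM6, RPA1 and TOP2A) single_unique, 9 partial_unique and 1 fully_unique. In 26 of the 29 genes all junctions had the same category, so category and gene cannot be told apart in them.

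The place of a junction along the gene gave no common order. Over the 19 genes with at least 5 junctions, Spearman's rho between the junction's order from the 5′ end and its Day 21 mean was above 0 in 7, and ran from -0.71 in RFC5 to 0.71 in TICRR. These are descriptions over few junctions each.

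Single guides spread widely even on a low junction. The lowest POLE2 guide, guide 8 of junction 2, stood at -5.55 and -7.80 at Day 21 (adjusted p 3.78e-07 by limma), and its implied number went from 98 to 2 and, in the other library, from 204 to 1. The lowest RPA1 guide, guide 8 of junction 2 (chr17:1843998-1844577), stood at -6.62 and -7.29 (adjusted p 2.11e-07), from 103 to 1 and from 143 to 1. The lowest POLD2 guide, guide 7, stood at -3.37 and -6.99 (adjusted p 3.18e-05), from 65 to 6 and from 116 to 1. All 3 were depleted in both replicates.

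The highest guides of the same genes did not replicate in size. Guide 3 of junction 1 of POLE2 stood at -1.19 in replicate 1 and 4.27 in replicate 2, where its implied number went from 82 to 1731 (adjusted p 0.453). This guide lies in the junction that was 0.77 in replicate 2 and enters the POLE2 mean of that replicate. Guide 4 of junction 9 of RPA1 stood at 1.35 and 3.21 (adjusted p 0.0769), and guide 6 of POLD2 at 0.76 and -0.21 (adjusted p 0.946). In ORC6, the highest gene, the lowest guide stood at -0.34 and -1.69 (adjusted p 0.650) and the highest at 1.16 and 1.91 (adjusted p 0.339). No ORC6 guide named here passed in either direction.

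The share of called guides, which come from the same values as the gene calls and are given as a description, ran from 11.6% in CDC45 to 29.6% in PCNA over the 11 called genes, beside 11.1% of all guides. It was 29.4% in MCM4, 25.3% in RPA1 and 18.7% in TOP2A. The table numbers the guides of a junction from 1 to 8, and what the number means is not given in the sources used here. Replication guides numbered 4 were called most often (17.5%) and those numbered 1 least often (7.32%). Among guides of other scored genes number 4 was also called most often (13.3%), and numbers 2 and 1 least often (10.8% and 10.9%). The median of number 4 was the lowest of the 8 in replicate 1 (-0.86), whereas in replicate 2 it was -0.42 and numbers 8, 1, 5 and 6 were lower.

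The table also listed a GeCKO score per gene, named like a pool of Cas9 guides, and its making is not given in the sources used here. Across the 29 genes the score and the Day 21 mean had Pearson's r of 0.198 and Spearman's rho of 0.266, as a description over genes. RFC5 had the lowest score, -1.76, and was not called as a gene here.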

How the data were processed

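Log2 fold changes per guide, day and replicate were deposited by the authors as a single table, per the file headers, with Day 0 as reference. The GeCKO score per gene was deposited in the same table. The submitters' processing notes list cutadapt 3.5, Bowtie 1.1.2 and hg38, with no role. The counter, pseudocount, scaling and filters are not given in the sources used here. A gene's value in a replicate was the mean over its guides. Each day was fitted alone with limma 3.58.1 (R 4.3.3; lmFit, eBayes) on 2 replicate values against 0, with Benjamini-Hochberg adjustment over the whole table and a threshold of 0.05. The fits were tested on simulated data. Depth is known only through the implied numbers. Members, roles and gene lists were chosen with earlier results of these data known. Named were all called genes, the lowest and highest gene of a role, the 5 genes with the widest junction range, the 3 lowest and 3 highest called junctions, and the extreme guides of the 3 lowest genes and the highest gene. Remaining members are given more briefly. Pairing by replicate number was checked: deviations of same-numbered libraries correlated at 0.484 (Day 7 with 14), 0.411 (Day 7 with 21) and 0.647 (Day 14 with 21), and all days of a replicate share its Day 0 library. Alternatives were a shared spread, a replicate block, other centrings, robust eBayes, an implied Day 0 number of at least 50, guide medians and each replicate left out.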

Additional observations from a re-analysis of the deposited data

Results flagged for a closer look

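The change from Day 7 to Day 21 differed from 0 by limma in 11 of the 29 replication genes (37.9%). For the same change 23.5% of all genes and 30.0% of scored genes were called lower. Each of the 11 was lower in 2 of 2 replicates, which a call on 2 values nearly requires. The mean changes on the log2 scale were -1.85 for POLD2, -1.61 for POLE2, -1.46 for MCM3, -1.42 for RPA1, -1.31 for MCM6, -1.30 for MCM4, -1.14 for MCM5, -1.01 for PCNA, -0.91 for RPA3, -0.90 for TOP2A and -0.67 for CDC45. These 11 genes are the ones also called at Day 14 and Day 21, and the comparisons share libraries. What set the time course was not tested.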

How the results depend on the processing

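Called genes at Day 14 went from 11 to 17 with a shared spread, 18 with the replicate block, 5 when centred on all guides and 0 with guide medians. At Day 21 they went from 11 to 19, 21, 1 and 0 under the same settings. For the change from Day 7 to Day 21 they went from 11 to 17 with the block, 5 centred on all guides and 0 with medians. The 11 genes were among those called with the block and with the shared spread. Called guides at Day 21 went from 200 to 421 with the block, and junctions unlike the rest of their gene from 56 to 114 with the block and 30 with medians. Replication minus non-targeting guides at Day 21 was -0.74 with means in place of medians, and -0.49 to -0.42 with a replicate left out. GINS3 reversed to 0.076 centred on all guides, and POLE3 to 0.28 centred on all guides, 0.016 with medians and 0.20 without replicate 1 (-0.24 without replicate 2). The causes were not tested. Day 7 gave 0 called genes under every alternative run. Of the 21 named results, the alternatives left 148 values on the same side and, where calls were computed, with the same call. They took 24 out of the call and 1 into it without a change of side, and reversed 4. The shared spread, the replicate block and robust eBayes change no mean, so their 21, 20 and 21 values among the 148 could not change side. These settings could change only the call. With a replicate left out no call is made, so 20 values without replicate 1 and 21 without replicate 2 could change only side. The total of 148 is therefore not a measure of how stable the results were. With a replicate left out, 1 library a day remains, so counts of calls could not be computed. Depth limits guides at an implied number of 1, and p-values rest on 2 replicates.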
